A study of Mus musculus with 8 samples.

Results

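The replication-dependent histone genes encode the bulk of the histones that package newly copied DNA, and 67 of them were taken from the 53465 gene identifiers in the files. They are the protein-coding genes of the Hist1, Hist2, Hist3 and Hist4 clusters in GENCODE M21, matched by Ensembl identifier, and all 67 were present. They comprise 6 genes for the linker histone H1, 18 for H2A, 18 for H2B, 12 for H3 and 13 for H4. The Hist1 cluster on chromosome 13 holds 54 of them, Hist2 on chromosome 3 holds 10, Hist3 on chromosome 11 holds 2 and Hist4 on chromosome 6 holds 1.

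RNA was sequenced from regulatory T cells (Treg cells) of C57BL/6 mice aged 3 to 4 weeks, sorted from spleen and lymph node, in 8 libraries with 1 library per condition. The study asked what Brg1, the ATPase of the BAF chromatin remodelling complex encoded by Smarca4, does in these cells when it is deleted and then restored. All mice carried R26CAG-FlpoER, an Flp recombinase under a ubiquitous promoter that acts after tamoxifen (TAM), and Cre was expressed from the Foxp3 locus, which is active in Treg cells. The WT library came from BrgF/+ Foxp3YFP-Cre/+ mice, which keep a single intact Brg1 allele once Cre has acted, so these controls are heterozygous. Mosaic females gave a Brg1-expressing subset (BrgF/ΔR, Foxp3+/+ as labelled) and a Brg1-deleted subset (BrgF/ΔR, Foxp3YFP-Cre) from healthy animals. The paper describes ΔR as null by default, so the Brg1-expressing subset also had a single working allele. It describes that subset as YFP-negative and the Brg1-deleted one as YFP-positive, while the Treg gate in its methods takes YFP-positive cells. The YFP gates of these subsets therefore differed, and the part of this in any comparison was not tested. The paper states that the ΔR line began on a mixed background and had 3 backcross generations to C57BL/6, fewer than the other lines. C57BL/6 is therefore a nominal strain here, and the part of background in any comparison was not tested. The rKO1 mice, which develop severe inflammation, were BrgF/ΔR Foxp3YFP-Cre/YFP-Cre. They gave a Brg1-deleted library without treatment, and a Brg1-deleted and a Brg1-reexpressed library (the latter BrgF/+) 7 days after a low dose of TAM. A separate experiment sequenced the Brg1-deleted and Brg1-reexpressed subsets of activated Treg cells (aTreg) of TAM-treated rKO1 mice. The aTreg library titled Brg1-deleted is described elsewhere in the labels as BrgF/F, and its column of values is headed as a WT, so it is called here the aTreg library labelled Brg1-deleted.

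With a single library per condition no test between conditions was possible, and every interval below is a 95% counting interval of reads that leaves out the variation between animals. In bulk RNA, a smaller share of cells in S phase and less histone mRNA per such cell cannot be told apart. Recovered reads ran from 16354421 to 24127709 per library, so that 1 read was worth 0.0410 to 0.0601 CPM (read counts scaled to library size, with TMM, a trimmed mean that equalizes libraries over most genes). The count over the whole of Smarca4, which includes exons outside the deleted part, was 35.9 to 47.0 CPM in the 3 Brg1-deleted total Treg libraries, 57.9 CPM in the Brg1-reexpressed one and 76.9 to 87.7 CPM in the 2 other libraries. In the aTreg pair it was 71.2 CPM in the library labelled Brg1-deleted and 59.4 CPM in the Brg1-reexpressed library, the reverse of the labels.

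Cells make these histones almost only while they replicate DNA. Transcription starts when cyclin E and Cdk2 act on Npat at the histone gene clusters, and the mRNA ends in a conserved stem-loop in place of a poly(A) tail. The protein Slbp binds the stem-loop and carries the mRNA through processing, export, translation and, at the end of S phase, decay. H2A and H2B genes commonly lie head to head around a shared promoter. The cDNA here was primed on poly(A) tails, which stem-loop mRNAs lack. Some of these genes are also known to give longer transcripts with a poly(A) tail, so the values describe histone RNA as such a library captures it, not all histone mRNA.

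The stem-loops are shown because they define the family and set where each annotated 3′ end lies relative to the processing site. Searching the annotated transcripts after the stop codon for the 16-base histone stem-loop, with at most 2 mismatches to its consensus, found a stem-loop in 46 of the 67 members. An exact match was present in 33 members and in 2 of 21834 other protein-coding genes. The commonest forms, from GENCODE M21 on GRCm38, are given 5′ to 3′ with the paired stem in capitals and the loop in lower case.
26 members of H1, H2A, H2B and H3: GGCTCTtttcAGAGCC
7 members of H4: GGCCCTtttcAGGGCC
6 members, among them Hist1h3c: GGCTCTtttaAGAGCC
Hist1h4i and Hist2h4: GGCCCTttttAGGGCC
The H4 forms differ from those of the other types in the stem, with both arms changed together so that the pairing is kept, and the forms printed within H4 or outside it differ in the loop. For the other 21 members the annotated transcript ends without a match.

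The genes are near copies of each other, which limits what a read count per gene means. The 18 H2A genes hold 16 distinct coding sequences, and the median H2A member shares 58.9% of its 150-base windows with another gene. Hist1h2ao and Hist1h2ap share 91.5% and 91.0% of theirs, so reads may have been moved between them or dropped. The median share was 22.5% for H2B, 38.1% for H3, 12.5% for H4 and 0% for H1. Sums over a type are therefore given beside single members.

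Promoters are shown for Hist1h2ao, the member with the most reads, and Hist1h2bm, an H2B gene with no shared window. RefSeq promoters (250 bases before to 50 after the RefSeq start, GRCm38.p6) were found for 57 members. Capitals mark the TATA box TATAAA, the site of the factor NF-Y, which is CCAAT, and the octamer ATTTGCAT, bound by Oct-1 (encoded by Pou2f1), each searched on both strands.
Hist1h2ao, chr13:21810117-21810416, plus strand: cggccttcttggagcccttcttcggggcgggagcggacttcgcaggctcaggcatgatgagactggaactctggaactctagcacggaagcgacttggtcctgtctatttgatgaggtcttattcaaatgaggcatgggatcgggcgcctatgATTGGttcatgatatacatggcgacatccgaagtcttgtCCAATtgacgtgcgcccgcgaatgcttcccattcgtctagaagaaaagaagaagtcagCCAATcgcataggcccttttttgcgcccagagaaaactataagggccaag
Hist1h2bm, chr13:21721794-21722093, plus strand: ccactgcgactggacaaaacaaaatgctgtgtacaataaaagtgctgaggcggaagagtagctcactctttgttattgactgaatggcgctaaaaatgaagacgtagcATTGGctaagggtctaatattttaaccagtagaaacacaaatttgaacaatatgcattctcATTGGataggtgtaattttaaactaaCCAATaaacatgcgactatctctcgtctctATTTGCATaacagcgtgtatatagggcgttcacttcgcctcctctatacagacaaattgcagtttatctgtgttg
CCAAT was present in all 46 H1, H2A, H2B and H3 promoters and in 3 of 11 H4 promoters, against 37.9% of 27025 promoters in the table. ATTTGCAT was present in 6 of 15 H2B and 6 of 17 H2A promoters and in no H1, H3 or H4 promoter, against 1.75% of all. TATAAA was present in 32 of 57, against 14.2% of all. Promoters of head-to-head pairs overlap, so these counts are not independent, and a match is a description and not a bound site.

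The histone sum was highest in the rKO1 Brg1-reexpressed library and lowest, among total Treg libraries, in the untreated rKO1 library. Summed over the 67 members the level was 533 CPM in WT, 532 CPM in mosaic Brg1-expressing, 320 CPM in mosaic Brg1-deleted and 229 CPM in untreated rKO1 Treg cells. After TAM it was 446 CPM in the rKO1 Brg1-deleted and 1850 CPM in the rKO1 Brg1-reexpressed library. In the aTreg experiment it was 85.2 CPM in the library labelled Brg1-deleted and 135 CPM in the Brg1-reexpressed library. In both total Treg pairs the Brg1-expressing or reexpressed library was above its Brg1-deleted partner, and in the aTreg pair the library labelled reexpressed was above the one labelled deleted, although Smarca4 there ran against the labels. By contrast, WT and mosaic Brg1-expressing cells were nearly equal. The aTreg levels come from a separate experiment and are not compared with the others.

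**Figure D1:**
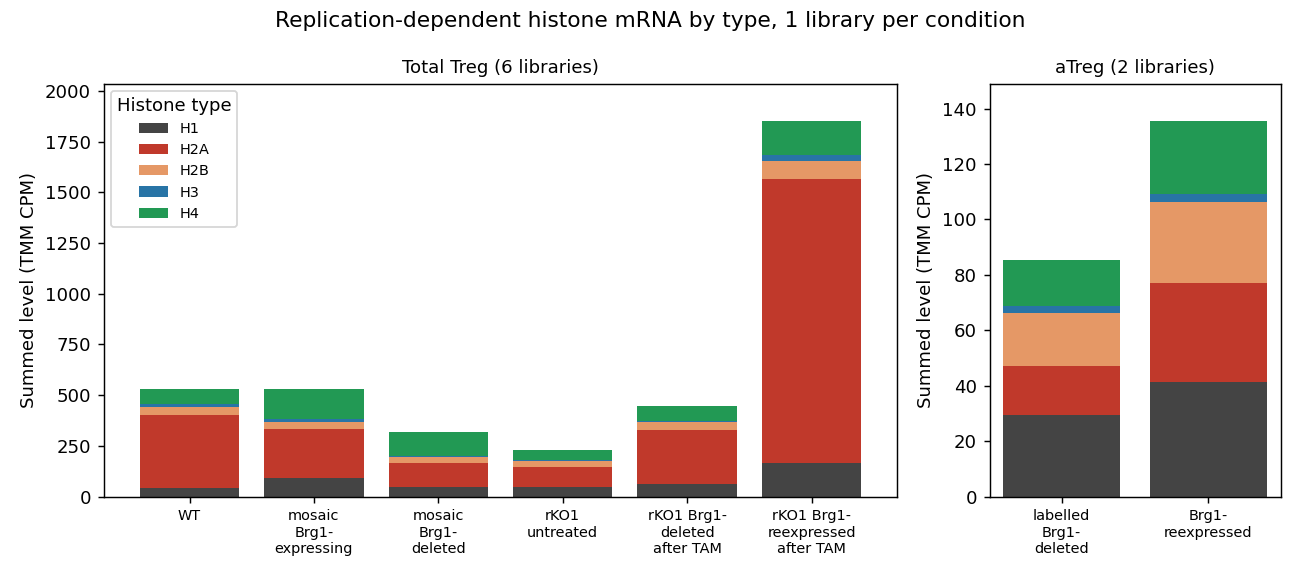
Summed histone level in TMM CPM (y axis, own scale in each panel) in the 6 total Treg libraries and the 2 aTreg libraries (x axis), stacked by histone type, with 1 library per bar and no error bars. The rKO1 Brg1-reexpressed bar reaches 1850 CPM and is mostly H2A.

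H2A made up most of the histone reads in the rKO1 Brg1-reexpressed library (75.6%) and in WT (67.4%), but only 20.5% in the aTreg library labelled Brg1-deleted. H4 ranged from 8.95% of histone reads in the rKO1 Brg1-reexpressed library to 37.1% in the mosaic Brg1-deleted library. H3 stayed between 1.77% and 3.05% in the 8 libraries. A nucleosome holds equal numbers of the core histones H2A, H2B, H3 and H4, and the recovered reads were far from equal between these types in each library.

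On the per-length scale (FPKM as deposited, mean over the 6 total Treg libraries) 1 gene stood well ahead in H2A and in H4. Hist1h2ao averaged 577 FPKM, Hist1h2ap 141, Hist1h2ae 83.6 and Hist1h2ai 25.8 among H2A genes. Hist1h4d led H4 with 71.1 FPKM, followed by Hist1h4n at 10.9, Hist1h4i at 8.69 and Hist1h4c at 7.01. Among H1 genes Hist1h1e averaged 20.2, Hist1h1b 16.9, Hist1h1c 15.7, Hist1h1a 1.45 and Hist1h1d 0.598 FPKM. H2B was more even, with Hist3h2ba at 17.1, Hist1h2bj at 15.9 and Hist1h2bm at 5.44 FPKM, and Hist1h2bc between the last 2. H3 was low throughout, with Hist1h3i at 5.42, Hist1h3a at 5.12, Hist1h3c at 4.33 and Hist1h3e at 2.24 FPKM.

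7 members had 0 reads in all 8 libraries: Hist1h1t, Hist1h2aa, Hist2h2aa1, Hist2h2aa2, Hist2h2bb, Hist2h3b and Hist2h3c1. Hist1h1t, Hist1h2aa and Hist1h2ba, whose head-to-head partner is Hist1h2aa, are known as testis histones, and Hist1h2ba reached 1 read in a single library. A count of 0 allows up to 3 reads, or 0.123 to 0.180 CPM in these libraries. For Hist2h2aa2 and Hist2h3c1, 100% of windows were shared with another gene, so a count of 0 cannot be read as no transcript there. Hist1h2br, Hist1h4b and Hist2h2ab reached at most 1 to 3 reads, and 56 members passed 3 reads in some library.

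In rKO1 mice, the Brg1-reexpressed cells had 4.09-fold more histone RNA than the Brg1-deleted cells sorted from TAM-treated animals (interval 3.99 to 4.19). Every type was higher. H2A led at 5.15-fold (4.99 to 5.31) and H3 followed at 3.89-fold (3.24 to 4.68), with H1 at 2.67-fold (2.49 to 2.86), H4 at 2.31-fold (2.16 to 2.47) and H2B at 2.28-fold (2.08 to 2.50). The intervals of H1, H2B and H4 did not reach that of H3, and that of H3 did not reach that of H2A. Of 23 members with at least 5 CPM in either library, 19 were at least 2-fold higher and none was at least 2-fold lower, against 6.83% and 5.82% of 10253 genes. The median member was 1.83 higher on the log2 scale and the median of all tested genes 0.05. A member can pass the 5 CPM filter through its higher library alone, so such counts describe the members and are no test of them.

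Hist1h2ao stood at 210 CPM in WT, 99.7 and 55.4 CPM in the mosaic Brg1-expressing and Brg1-deleted libraries, 61.3 CPM in untreated rKO1, and 193 and 932 CPM in the rKO1 Brg1-deleted and Brg1-reexpressed libraries. The reexpressed library stood apart from the other 5, while WT and treated rKO1 Brg1-deleted cells were close. Its rKO1 ratio was 4.77-fold (4.60 to 4.95), and it held 66.6% of H2A reads in the reexpressed library (exact binomial interval 66.0 to 67.2). Without Hist1h2ao the other 17 H2A genes together were 6.12-fold higher (5.78 to 6.49) and the other 66 members 3.57-fold higher (3.46 to 3.69), so the difference did not rest on that gene.

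Hist1h2ap, the near copy of Hist1h2ao, was at 51.3, 44.6, 25.2, 12.6, 23.8 and 225 CPM in the same order of libraries. The 9.33-fold rKO1 ratio (8.45 to 10.3) had an interval above that of Hist1h2ao (4.60 to 4.95), although most windows of both genes are shared with other genes. Hist1h2ai gave 8.72, 9.18, 5.09, 0.417, 3.10 and 30.8 CPM, so it was almost unread in untreated rKO1 cells and 9.79-fold higher (7.43 to 13.1) after reexpression. Hist1h2ae gave 62.5, 60.4, 21.4, 14.8, 30.4 and 142 CPM, a 4.62-fold rKO1 ratio (4.21 to 5.07). Here WT and mosaic Brg1-expressing cells matched and the 3 Brg1-deleted libraries all lay below them. The largest ratio among tested members was that of Hist1h2an, at 18.5-fold, and its wide interval (8.23 to 51.6) reflects 103 against 6 reads.

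The linker histones did not move together. Hist1h1b, a linker histone variant of cycling cells, gave 6.61, 5.18, 1.52, 3.80, 7.78 and 45.5 CPM and was 5.77-fold higher (4.82 to 6.95) in reexpressed cells. Hist1h1e gave 19.7, 54.4, 22.9, 21.3, 24.5 and 78.2 CPM, so the Brg1-expressing mosaic and the reexpressed rKO1 library stood above the other 4, and its rKO1 ratio was 3.15-fold (2.83 to 3.52). Hist1h1d was 2.93-fold higher (2.17 to 4.01), from 3.26 to 9.70 CPM. Hist1h1c gave 15.0, 30.6, 20.03, 16.5, 25.5 and 30.6 CPM, and its rKO1 ratio was 1.19-fold (1.05 to 1.35), with the interval well below those of the other 3. Hist1h1a stayed under the filter, at 0.816 against 2.86 CPM.

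Of the 18 H2B genes 4 passed the filter, of which 2 were far higher and 2 were nearly level. Hist1h2bj gave 4.45, 4.05, 1.11, 2.19, 4.02 and 25.5 CPM, a 6.26-fold rKO1 ratio (4.88 to 8.12), and Hist1h2bm was 4.74-fold higher (3.28 to 7.00), from 1.96 to 9.40 CPM. Hist1h2bc, at 13.8 and 14.8 CPM, had a ratio of 1.06-fold (0.88 to 1.27) and was the tested member with the smallest ratio in this comparison. Hist3h2ba, at 9.19 and 12.3 CPM, had a ratio of 1.32-fold (1.07 to 1.62). These last 2 genes were the leading H2B genes in untreated rKO1 cells, with 26.3% and 36.1% of H2B reads, and held 17.2% and 14.2% of them in the reexpressed library.

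Of H3 genes 2 passed the filter. Hist1h3c gave 1.38, 1.65, 0.739, 0.521, 1.69 and 9.40 CPM and was 5.50-fold higher (3.72 to 8.37), and Hist1h3a was 3.45-fold higher (2.27 to 5.39), from 1.63 to 5.71 CPM. Hist1h3i and Hist1h3e had ratios of 3.63-fold (2.15 to 6.42) and 2.68-fold (1.66 to 4.44) on fewer reads. Among H4 genes Hist1h4i gave the largest ratio of those tested, 3.57-fold (2.79 to 4.60), from 4.62 to 16.7 CPM. Hist1h4n was 3.07-fold higher (2.23 to 4.29) and Hist1h4c 2.15-fold higher (1.65 to 2.80). Hist1h4d, the leading H4 gene, gave 49.7, 117, 98.6, 31.1, 49.3 and 114 CPM, so both mosaic libraries were close to the reexpressed rKO1 library, and its rKO1 ratio was 2.29-fold (2.11 to 2.48).

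**Figure D2:**
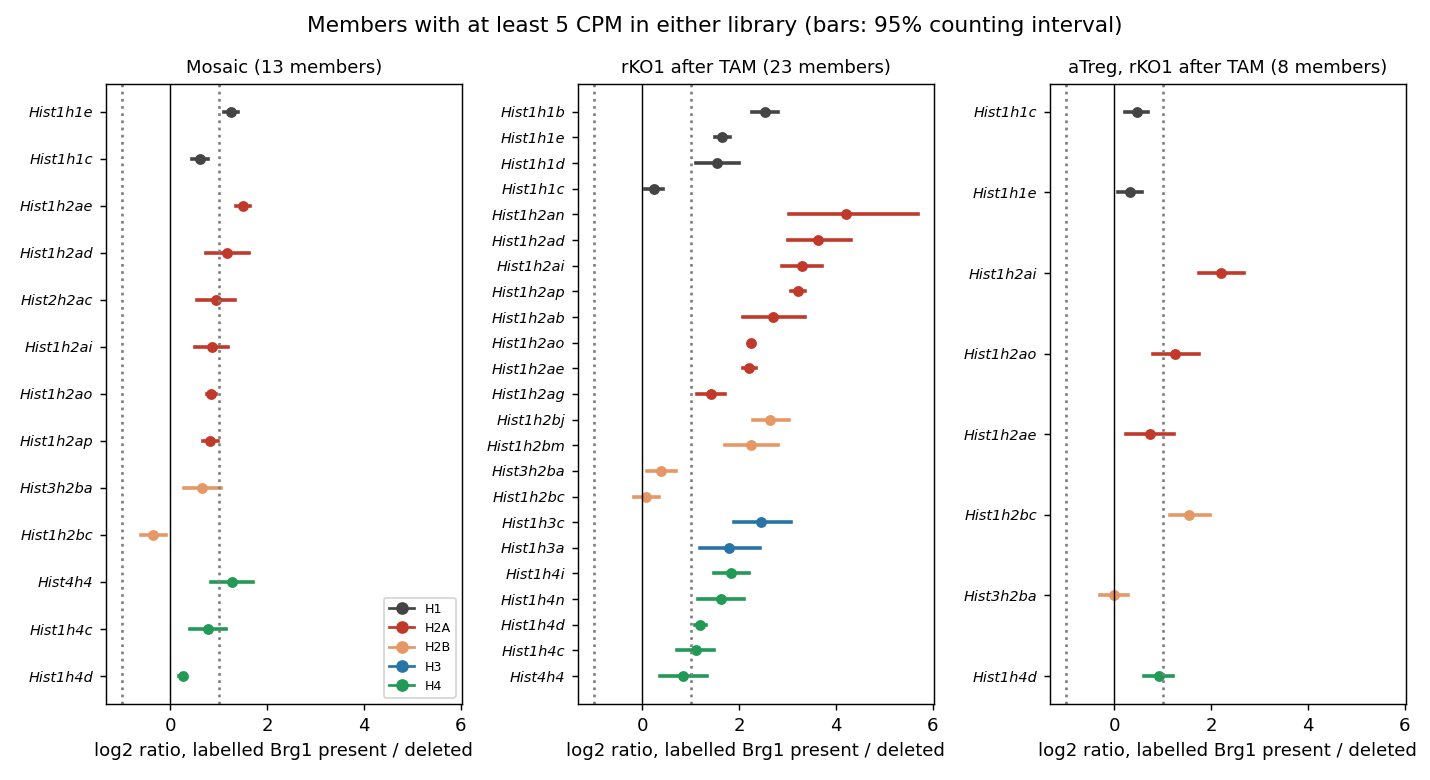
Log2 ratio of the library labelled Brg1-expressing or reexpressed to the one labelled Brg1-deleted (x axis; Smarca4 ran against the labels in the aTreg pair) for the members with at least 5 CPM in either library (y axis, grouped and coloured by histone type) in the mosaic, rKO1 and aTreg comparisons, with 95% counting intervals and dotted lines at 2-fold. In rKO1, 19 of 23 members lie past 2-fold, against 4 of 13 in the mosaic and 3 of 8 in the aTreg pair.

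Reexpressed cells were also above WT and mosaic Brg1-expressing cells, in comparisons that share the reexpressed library as numerator. The sum was 3.41-fold that of WT (3.33 to 3.49) and 3.54-fold that of mosaic Brg1-expressing cells (3.47 to 3.62), the latter 2.16-fold (2.11 to 2.22) without Hist1h2ao. Against WT, 19 of 24 members were at least 2-fold higher and 1, Hist2h4, was at least 2-fold lower, against 9.22% and 7.49% of 10103 genes. Against mosaic Brg1-expressing cells, 15 of 24 were at least 2-fold higher and none was at least 2-fold lower, against 11.1% and 10.3% of 10116 genes. H4 was 1.14-fold (1.08 to 1.20) above mosaic Brg1-expressing cells and H2A 5.92-fold (5.74 to 6.10). Of 25 members that reached 5 CPM in some total Treg library, 20 were highest in the reexpressed library, against 26.6% of 11037 genes. In 14 of the 25 it was at least 2-fold above each of the other 5, against 3.18% of those genes.

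The size of the rKO1 ratio varied with the setting. On unscaled read totals the log2 ratio of the sum was 1.70 in place of 2.03, and it was 2.20-fold (2.08 to 2.32) over the 14 members with no shared window, a set chosen after seeing the data. Genes that are not histones but have the exon length of a member also tended to be higher in this library, by a median of up to 0.51 on the log2 scale, and taking that off each member left 1.59 of the 2.03.

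Under healthy conditions, in mosaic females, the Brg1-expressing cells had 1.66-fold more histone RNA than the Brg1-deleted cells (1.61 to 1.71), which were sorted through a different YFP gate. H1, H2A and H3 were higher by 2.01-fold (1.87 to 2.16), 1.99-fold (1.90 to 2.09) and 1.95-fold (1.61 to 2.36). H2B at 1.32-fold (1.18 to 1.47) and H4 at 1.25-fold (1.19 to 1.31) were lower than these, with intervals that did not reach them. Of 13 members tested, 4 were at least 2-fold higher and none was at least 2-fold lower, against 3.93% and 2.0% of 9985 genes (5.93% in either direction). These 4 were Hist1h2ae at 2.82-fold (2.54 to 3.13), the largest ratio, Hist4h4 at 2.42-fold (1.79 to 3.29), Hist1h1e at 2.38-fold (2.15 to 2.63) and Hist1h2ad at 2.26-fold (1.67 to 3.08). Set against how far genes of similar level differ between WT and mosaic Brg1-expressing cells and between the 2 Brg1-deleted rKO1 libraries, 2 of the 13 were beyond that band, which is 1.92 on the log2 scale at 5 CPM and 1.02 at 20 CPM. The band shares the mosaic Brg1-expressing library with the pair it is set against. The share of all genes beyond it is not given, so this count describes the members only.

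Hist1h2ao, at 1.80-fold (1.68 to 1.93), and Hist1h2ap, at 1.77-fold (1.60 to 1.97), stayed under 2-fold in the mosaic pair. Hist1h4d differed least among the abundant genes, at 1.19-fold (1.13 to 1.26), and made up 79.2% and 82.9% of H4 reads in the 2 libraries. Hist1h2bc was the member with the lowest ratio, 0.78-fold (0.66 to 0.93), on 221 and 323 reads. No H3 gene reached 5 CPM in this pair, and the 12 H3 genes together gave 302 against 178 reads.

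In aTreg cells of treated rKO1 mice the histone sum was 1.59-fold higher in the Brg1-reexpressed library than in the library labelled Brg1-deleted (1.49 to 1.69). H2A led again, at 2.05-fold (1.79 to 2.35). H4 was at 1.60-fold (1.39 to 1.86), H2B at 1.49-fold (1.30 to 1.71) and H1 at 1.40-fold (1.26 to 1.57). For H3 the interval ran from 0.83 to 1.84 around 1.23-fold on 63 and 46 reads, so no difference was detectable at this depth. Of 8 members tested, 3 were at least 2-fold higher and none was at least 2-fold lower, against 4.4% and 2.03% of 10035 genes (6.44% in either direction).

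Hist1h2ai gave 2.71 and 12.4 CPM in the aTreg pair, the largest ratio at 4.59-fold (3.36 to 6.39). Hist1h2bc gave 3.73 and 10.9 CPM, 2.93-fold (2.21 to 3.92), although it was level in the rKO1 total Treg pair. Hist1h2ao gave 2.94 and 7.06 CPM, 2.40-fold (1.74 to 3.37), and held 16.8% and 19.7% of H2A reads. Hist3h2ba, at 10.8 CPM in both libraries, had the lowest ratio of those tested, 0.998-fold (0.82 to 1.22).

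Markers of erythroid precursors moved with the aTreg pair. The 6 genes of that list present in the files summed to 30.4 CPM in the library labelled Brg1-deleted and 443 CPM in the Brg1-reexpressed library. All 4 that passed the 5 CPM filter were at least 2-fold higher, against 4.4% of 10035 genes. In the 6 total Treg libraries the same sum was 2.54 to 10.8 CPM. Plasma cell markers were at 26.9 and 89.6 CPM and myeloid markers at 475 and 694 CPM in the aTreg pair. The myeloid sum was 399 CPM in WT and 47.1 to 132 CPM in the other total Treg libraries. It was 106 and 47.1 CPM in the treated rKO1 Brg1-deleted and reexpressed libraries. In that pair 4 of the 5 tested myeloid markers were at least 2-fold lower after reexpression, against 5.82% of 10253 genes. B cell markers summed to 75.2 CPM in WT, 15.2 CPM in untreated rKO1 and 19.9 to 55.3 CPM in the other total Treg libraries, and CD8 T or NK markers to 11.8 to 34.2 CPM over these 6 libraries. Treg markers, led by Foxp3, summed to 1298 to 2291 CPM over all 8. The part of any of these cells in the histone values was not tested.

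Untreated rKO1 Treg cells, which lack Brg1 and come from inflamed mice, had a histone sum 2.35-fold lower than WT (2.26 to 2.44). H2A differed most, at 3.58-fold lower (3.40 to 3.77), while H1 was level at 1.02-fold (0.92 to 1.12). Of 14 members tested, 7 were at least 2-fold lower and none was at least 2-fold higher, against 7.37% and 8.5% of 10575 genes. They were the H2A genes Hist1h2ai, Hist1h2ag, Hist1h2ae, Hist1h2ap and Hist1h2ao, from 21.1-fold lower in Hist1h2ai to 3.45-fold in Hist1h2ao, and the H4 genes Hist2h4 and Hist1h4h, at 3.77-fold and 2.30-fold lower. Without the members whose exons overlap another annotated gene, which removes all 18 H2A genes, the log2 difference shrank from -1.23 to -0.55. B cell markers were lower in the same pair by a log2 ratio of -2.32 (-2.51 to -2.13). Of these, 2 of 2 tested were at least 2-fold lower, against 7.37% of 10575 genes. Myeloid markers were lower by -1.91 (-1.98 to -1.84), while plasma cell markers were higher by 1.16 (0.96 to 1.37). The part of these cells in the result was not tested.

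Within the Brg1-deleted state, the treated rKO1 library was 1.97-fold above the untreated one (1.90 to 2.04). Of 12 members tested, 4 were at least 2-fold higher and none was at least 2-fold lower, against 2.32% and 2.42% of 10552 genes. They were Hist1h2ag at 5.27-fold, Hist1h2ao at 3.18-fold, Hist1h2ae at 2.07-fold and Hist1h1b at 2.06-fold. H2A was 2.68-fold higher (2.54 to 2.82), and the other types 1.28-fold to 1.54-fold. These 2 libraries carry the same labelled genotype, so the gap between them gives a size that library, animal or treatment can add without a change in Brg1. The 1.97-fold gap is larger than the 1.66-fold of the mosaic pair and the 1.59-fold of the aTreg pair, and smaller than the 4.09-fold of the rKO1 pair. The order against the mosaic and aTreg pairs rests on Hist1h2ao, since without it treated against untreated was 1.53-fold (1.46 to 1.60), the mosaic pair 1.63-fold (1.58 to 1.69), the aTreg pair 1.56-fold (1.46 to 1.67) and the rKO1 pair 3.57-fold.

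The 2 libraries from mice without disease and with Brg1 present, WT and mosaic Brg1-expressing, had sums within 1.02-fold (0.99 to 1.05). Beneath the equal sums the types differed in opposite directions. H2A was 1.52-fold higher in WT (1.46 to 1.58), while H1 was 2.06-fold lower and H4 1.88-fold lower. Of 16 members, 2 were at least 2-fold higher and 4 at least 2-fold lower in WT, against 4.4% and 4.7% of 10009 genes (9.09% in either direction). Hist1h2ao and Hist3h2ba were the higher ones, at 2.14-fold and 2.49-fold, and Hist1h4c, Hist1h1e, Hist1h4d and Hist2h2ac were 3.48-fold to 2.17-fold lower. Without Hist1h2ao the log2 ratio of the sum turned from 0.03 to -0.40, so the equality rested on that gene.

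Members were next divided by the annotated length after the stem-loop, a split made after their values had been seen. The annotated transcript ran at least 100 bases past the stem-loop in 23 members and less in 23. The nearest values to this limit are 74 bases in Hist1h3c and 108 in Hist1h4a. In the rKO1 pair the members with short ends together were 5.13-fold higher (4.97 to 5.30), those with long ends 2.62-fold (2.51 to 2.73) and those with no stem-loop found 3.77-fold (3.44 to 4.14). All 10 tested members with short ends were at least 2-fold higher, as were 6 of 9 with long ends and 3 of 4 with none found. The share over all 10253 tested genes was 6.83%. These small counts describe the members and are no test of the end classes. Without Hist1h2ao, the log2 ratio for short ends was 2.68 (2.58 to 2.78) against 1.39 (1.33 to 1.45) for long ends.

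The separation was not the same in each type. Members with no stem-loop found also varied, with rKO1 log2 ratios from 0.28 (0.05 to 0.51) in H2B to 3.22 (2.90 to 3.55) in H2A. H2A, with most of the reads, had rKO1 log2 ratios of 2.37 (2.33 to 2.42) for short and 2.10 (1.98 to 2.23) for long ends, and in the mosaic pair the order was the reverse, at 0.88 (0.80 to 0.95) for short and 1.44 (1.29 to 1.58) for long ends. Hist1h2ae held 1283 of 1343 and 522 of 569 long-ended H2A reads in the mosaic pair. Hist1h2ao held 15672 of 20310 short-ended H2A reads in the rKO1 reexpressed library. The H2A orders therefore rest largely on single genes and cannot be read as a property of the end class. Of H2A, H2B, H3 and H4, H2B had the widest gap in rKO1. The 6 short-ended H2B genes had a log2 ratio of 2.59 (2.32 to 2.86) in rKO1, 1.63 (1.25 to 2.03) in the mosaic and 1.51 (0.72 to 2.36) in the aTreg pair. The 4 long-ended H2B genes had 0.65 (0.42 to 0.89), 0.54 (0.26 to 0.81) and -0.09 (-0.36 to 0.17). Hist1h2bj held 429 of 740 short-ended H2B reads in the rKO1 reexpressed library, and Hist3h2ba most of the long-ended ones. The size of the H2B gap therefore also depends on single genes and cannot be read as a property of the end class. In H3 the rKO1 log2 ratios were 2.25 (1.89 to 2.63) for short and 1.44 (0.95 to 1.95) for long ends, with overlapping intervals. In H4 they were 1.15 (0.81 to 1.49) and 1.21 (1.11 to 1.31), so no separation was detectable there. Short-ended members are also short genes, with a median exon length of 485 bases (without Hist1h2ao) against 1249, and other genes of such lengths had a median log2 ratio of 0.49 around the short-ended and 0.28 around the long-ended members in rKO1. The part of gene length in the separation beyond this was not tested.

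**Figure D3:**
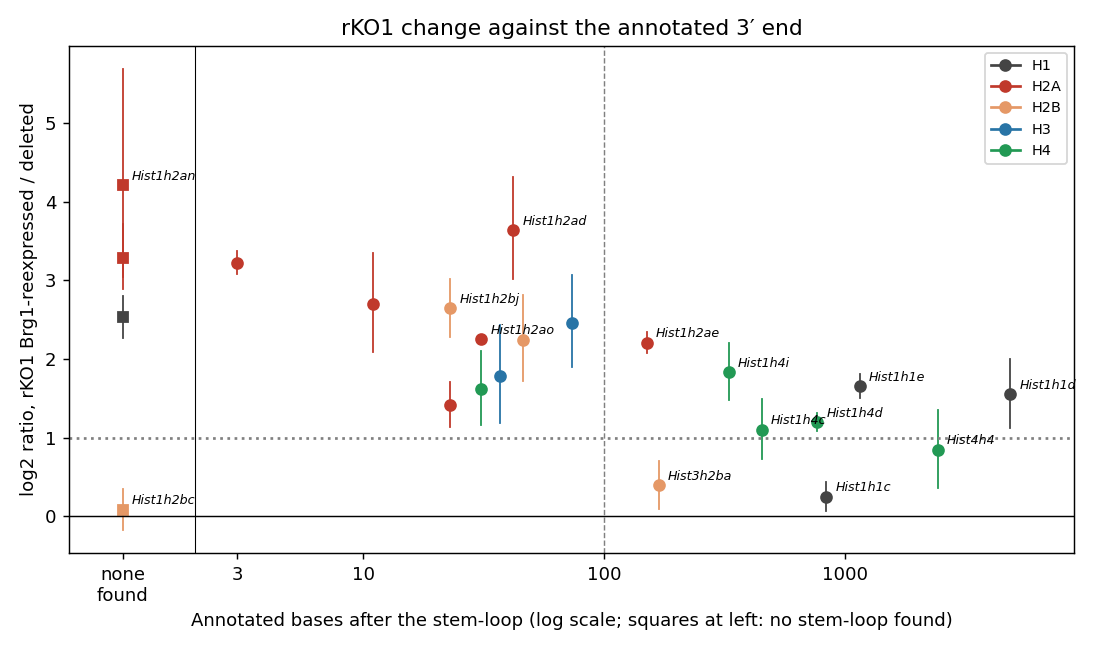
Log2 ratio of the rKO1 Brg1-reexpressed to the Brg1-deleted library after TAM (y axis) against the annotated bases after the stem-loop (x axis, log scale, squares at the left for no stem-loop found) for the 23 tested members, coloured by type, with 95% counting intervals and a dashed line at 100 bases. Short-ended members lie between Hist1h2ag at 1.42 and Hist1h2ad at 3.64, and long-ended members between Hist1h1c at 0.25 and Hist1h2ae at 2.21.

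Position in the clusters followed a related order. The 18 members of the first Hist1 block (chr13:21715763-21837530) were 5.32-fold higher in rKO1 (5.15 to 5.49), the 5 of the second block (chr13:22035164-22043676) 4.09-fold (3.61 to 4.65) and the 31 of the third block (chr13:23531050-23934851) 2.74-fold (2.63 to 2.85). The 10 Hist2 genes on chromosome 3 were level at 1.12-fold (0.87 to 1.45), the 2 Hist3 genes were at 1.23-fold (1.01 to 1.50) and Hist4h4 was at 1.80-fold (1.28 to 2.54). In untreated rKO1 cells the 3 Hist1 blocks, taken in the same order, were 3.46-fold, 2.22-fold and 1.66-fold below WT, the same order in the opposite direction. The blocks differ in type, copy number and 3′ ends, and position cannot be told apart from these.

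A total of 12 head-to-head H2A and H2B pairs lay 175 to 305 bases apart. In 10 of them the H2A gene had more reads over the total Treg libraries, in Hist1h2ac and Hist1h2bc the H2B gene had more (186 against 1283 reads), and Hist1h2aa and Hist1h2ba had none. Hist1h2ao gave 27356 reads and its partner Hist1h2bq 71, although 92.4% of the windows of Hist1h2bq are shared with another gene. Hist1h2ag and Hist1h2bj were close, at 785 and 732 reads, with rKO1 log2 ratios of 1.42 and 2.65. Both genes of the pair Hist1h2ac and Hist1h2bc were level, at 0.35 and 0.08. The pair Hist2h2ac and Hist2h2be diverged, at 0.60 and -1.85, on 70 against 50 and 9 against 35 reads.

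The genes that act on histone mRNA moved less than the histones. Of 25 tested genes for histone mRNA processing and transcription, 2 were at least 2-fold higher and 1 at least 2-fold lower in rKO1. The shares over all 10253 tested genes were 6.83% and 5.82%. The summed level of the list was 3159 against 2461 CPM. Slbp, the stem-loop binding protein, gave 233, 111, 92.0, 170, 224 and 463 CPM over the 6 total Treg libraries in the order used above, and its rKO1 log2 ratio was 1.03. Ccne2, a cyclin E, had a log2 ratio of 1.06, from 11.9 to 25.2 CPM. Npat gave 15.5, 12.4, 11.9, 18.1, 18.1 and 19.0 CPM, with a log2 ratio of 0.05. Pou2f1, which encodes Oct-1, was at 20.4 and 9.28 CPM, with a log2 ratio of -1.15.

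Of 22 tested histone chaperones, which carry histones to DNA, 2 were at least 2-fold higher and 1 at least 2-fold lower in rKO1. The shares over all 10253 tested genes were 6.83% and 5.82%, so such small counts do not set the list apart. Asf1b, which hands H3 and H4 to the assembly machinery, rose from 68.8 to 207 CPM (log2 ratio 1.57), and Chaf1a, the large subunit of the replication-linked assembly factor CAF-1, from 20.2 to 53.0 CPM (1.37). Ipo4, which imports H3 and H4, was lower, at 10.4 and 4.28 CPM (-1.30). Histone variants outside the members, listed as replication-independent, summed to 4621 and 7749 CPM. Against 6.83% of 10253 genes, 3 of 10 variants were at least 2-fold higher. They were the centromeric H3 variant Cenpa (log2 ratio 1.58), H2afx, which is phosphorylated at DNA breaks (1.31), and the linker variant H1f0 (1.18). In the mosaic pair H1f0 stood at 87.2 and 14.5 CPM, a log2 ratio of 2.59.

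S phase genes, a list of 40 for DNA replication and nucleotide supply, summed to 4085 CPM in the reexpressed library and 2144 CPM in the rKO1 Brg1-deleted library, a 1.88-fold ratio (1.86 to 1.90). Of 39 tested, 10 were at least 2-fold higher and none was at least 2-fold lower, against 6.83% and 5.82% of 10253 genes. The leading members were Rrm2, the small subunit of ribonucleotide reductase, at 73.1 and 343 CPM (log2 ratio 2.21), thymidine kinase Tk1 (1.55) and the origin licensing factor Cdc6 (1.48). Of 26 mitotic genes, 23 were at least 2-fold higher, against 6.83% of 10253 genes, and the mitotic sum was 3.10-fold higher (3.04 to 3.16).

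The histone sum therefore moved more than the S phase sum in this pair. Per read of an S phase gene there were 0.453 histone reads in the reexpressed library, 0.284 in WT, 0.311 and 0.212 in the mosaic Brg1-expressing and Brg1-deleted libraries, 0.140 in untreated rKO1 and 0.208 in treated rKO1 Brg1-deleted cells. The reexpressed library was the highest of the 6, but this rank rested on Hist1h2ao. Without that gene the mosaic Brg1-expressing library was higher. It had 9187 histone and 36316 S phase reads, against 15432 and 68679 in the reexpressed library. In the mosaic pair the S phase sum differed by 1.13-fold (1.12 to 1.15), while the histone sum differed by 1.66-fold. None of 36 tested S phase genes passed 2-fold there, against 5.93% of 9985 genes in either direction. In the aTreg pair the ratios were 0.0591 and 0.0769. Against the mitotic sum the order changed, with 1.38 and 1.06 in the mosaic Brg1-expressing and Brg1-deleted libraries, 0.825 in the reexpressed library, 0.817 in WT, and 0.416 and 0.625 in untreated and treated rKO1 Brg1-deleted cells. In the aTreg pair this ratio was 0.427 in the library labelled Brg1-deleted and 0.285 in the reexpressed one, opposite in direction to the ratio against S phase genes.

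**Figure D4:**
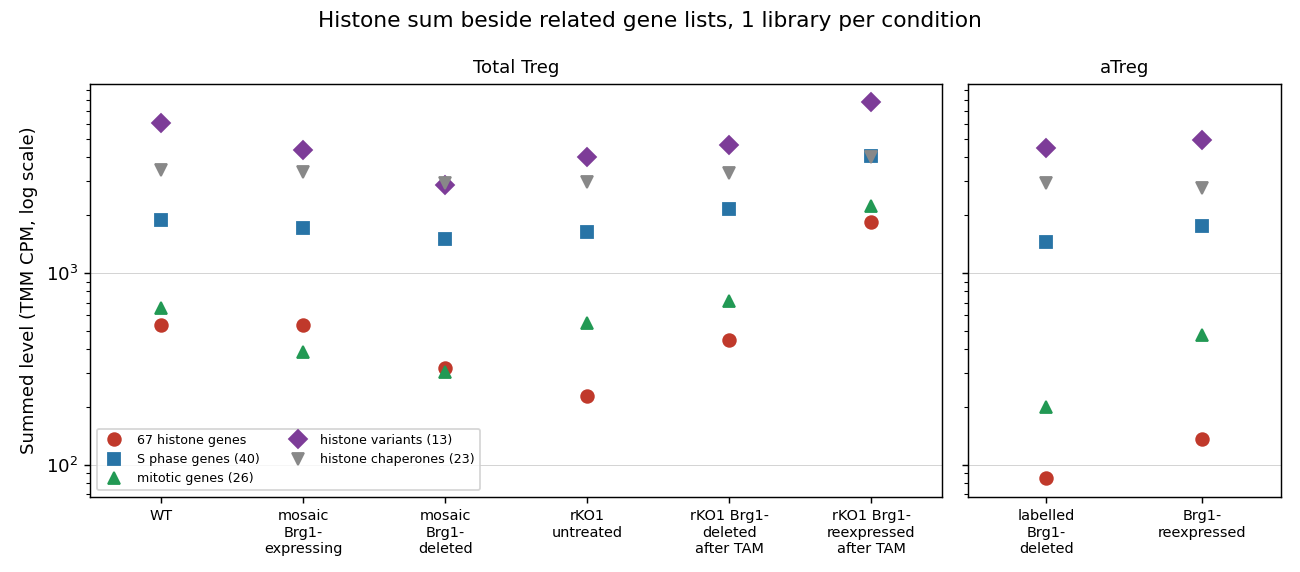
Summed level in TMM CPM (y axis, log scale) of the 67 histone genes and of 4 related gene lists in the 6 total Treg and 2 aTreg libraries (x axis), with 1 library per point and no error bars. From the rKO1 Brg1-deleted to the Brg1-reexpressed library the histone sum goes from 446 to 1850 CPM and the S phase sum from 2144 to 4085 CPM.

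Other RNAs that lack a poly(A) tail were checked in the same way. The listed non-polyadenylated RNAs summed to 9.57 and 11.5 CPM in the rKO1 Brg1-deleted and reexpressed libraries, a log2 ratio of 0.25 (-0.05 to 0.55). In WT the same sum was 33.9 CPM, and in the other total Treg libraries 9.07 to 15.0 CPM. From WT to untreated rKO1 cells this sum was lower by a log2 ratio of -1.91 (-2.17 to -1.67), in the same direction as the histone sum at -1.23. Only 1 of the 16 entries passed the 5 CPM filter in that comparison, at -1.84, and 1 in the rKO1 pair. Several entries had 0 reads in all total Treg libraries, so the sum does not describe such RNAs as a group. The part of these RNAs in the histone values was not tested. Olfactory receptor genes, which these cells should not express, summed to 4.03 to 8.43 CPM over the 8 libraries, with a rKO1 log2 ratio of -0.03 (-0.43 to 0.38).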

How the data were processed

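The authors sequenced SMART-Seq v4 cDNA in paired 150-base reads and deposited FPKM per gene, which are fragment counts scaled to exon length and library size. The submitters' notes name HISAT2 2.0, StringTie 1.3.3b, featureCounts 1.5.0-p3 and mm10. The 6 total Treg and 2 aTreg libraries came as separate experiments and were analysed separately. FPKM times GENCODE M21 exon length gave whole reads (tolerance 0.002) for 93.1% of 26057 total Treg genes. A further 1759 gave whole reads with a length taken from their own values, and all 21242 aTreg genes did with M21 lengths. Whether multiply mapped reads were counted is not given in the sources used here. Reads were scaled by TMM within each pair for ratios and over each experiment for CPM. A gene was tested where 1 of the paired libraries reached 5 CPM, and called at a 2-fold difference, with 0.125 reads added for calls only; both limits follow the study's methods. Intervals are exact (Clopper-Pearson) at 95%, cover counting error only, and amplified reads carry no molecular identifiers. A count of 0 was bounded at 3 reads. With 1 library per condition no model test was run, and the scaling and calls were tested on simulated data. Members, lists and comparisons were chosen with earlier results of these data known. Named by rule were the 4 members of each type highest in FPKM (H1 whole), the largest rise and fall in the mosaic, rKO1 and aTreg pairs among members with 50 reads, members under 4 reads, and the 3 genes of each other list that differed most in rKO1, with Slbp and Npat. Other members and genes named were chosen after their values were seen. Scripts ran in Python 3.11.15 with pandas 2.3.3, SciPy 1.17.1 and NumPy 2.4.6, and plots were drawn with matplotlib 3.10.9.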

Additional observations from a re-analysis of the deposited data

Results flagged for a closer look

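In 4 members the 95% counting intervals of the log2 ratio lay on opposite sides of 0 in different comparisons among the mosaic, rKO1 and aTreg pairs, and for none of them was the difference between the comparisons tested. Hist1h2bc had a log2 ratio of -0.35 (-0.60 to -0.10) in the mosaic pair and 1.55 (1.15 to 1.97) in the aTreg pair. Hist1h2bh had a log2 ratio of 2.05 in the rKO1 total Treg pair (46 against 12 reads), while in the aTreg pair it had 0 against 10 reads, a log2 ratio of at most -1.89 with the 0 set to 3 reads. Hist1h3e had log2 ratios of 1.31 in the mosaic and 1.42 in the rKO1 pair and -2.96 in the aTreg pair, the last on 1 against 7 reads. Hist2h2be had -1.85 in the rKO1 pair (9 against 35 reads) and 0.96 in the aTreg pair (41 against 19 reads).

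Reads were also present in genes beside or within the clusters that are not members. The pseudogene Hist1h2al reached 173 reads, in the mosaic Brg1-expressing library, and the pseudogene Hist1h2aj 108 reads, in the rKO1 Brg1-reexpressed library against 15 in the rKO1 Brg1-deleted one. The highest counts in a library were 61 for Gm20632, 27 for Gm42743, 16 for Gm20628, 15 for Gm20633, 9 for Hist3h2bb-ps, 6 for Gm15444 and 4 for Trim17.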

How the results depend on the processing

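No paired analysis was possible because each condition has 1 library, and for the same reason no replicate could be left out. No ratio of a histone sum changed direction under any setting except that of WT to mosaic Brg1-expressing cells, and where a value moved the cause was not tested. The log2 ratios of the sum are given in the order mosaic, rKO1, aTreg, untreated rKO1 to WT, treated to untreated Brg1-deleted rKO1, and WT to mosaic Brg1-expressing, where they differ from the main values of 0.73, 2.03, 0.67, -1.23, 0.98 and 0.03. Scaling on total reads gave 0.60 for the mosaic, 1.70 for rKO1, -0.92 for untreated to WT and 0.88 for treated to untreated. The FPKM as deposited gave 0.80, 2.18, 0.85, -1.49, 1.17 and 0.39. Leaving out Hist1h2ao gave 1.84 for rKO1, -0.96 for untreated to WT, 0.61 for treated to untreated and -0.40 for WT to mosaic. Correction for gene length gave 0.53, 1.59, 0.43 and -0.99 for the first 4 and 0.088 for the last. Leaving out members that overlap another gene gave 0.43 for the mosaic, 1.27 for rKO1, -0.55, 0.55 and -0.60 for the last 3. Members with no shared window, a setting chosen after seeing the data, gave 0.39, 1.14, 0.49, -0.52, 0.55 and -0.75. The counts of members past 2-fold, 4, 19, 3, 7, 4 and 6 in that order, became 15, 38, 11, 20, 10 and 15 with a filter of 1 CPM, and 25, 42, 15, 22, 13 and 22 with at least 10 reads in place of a CPM filter. Looser filters let in more members, with fewer reads each. The share of all genes under the same filters is not given, so these larger counts do not show a wider difference. In the mosaic pair 2 members were beyond the band of differences between library pairs, with no share of all genes given. On total reads 2 members passed in treated against untreated cells. Of the other values under a setting, 199 for single members and types stayed close to the main value and 33 moved.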
